A study of Drosophila melanogaster with 3 samples.

Results

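The peaks described here are the reproducible CG5245-GFP binding sites of Drosophila melanogaster embryos that lay at a promoter serving a single direction of protein-coding transcription. A peak was included when a transcription start site (TSS) of a protein-coding gene lay within 500 bp of its summit, the point of highest signal. A peak was left out when a second protein-coding gene had a TSS within 500 bp on the opposite strand, placed so that transcription of both genes pointed apart. These divergent promoters accounted for 630 peaks. The rule kept 1067 of the 3670 peaks of the authors' reproducible set (29.1%), and the other 1973 peaks had no protein-coding TSS within 500 bp. Of the measured signal, only membership of the set and the position of the summit entered the rule.

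The data come from chromatin immunoprecipitation followed by sequencing (ChIP-seq) of 1 group of whole embryos, aged 0 to 16 h and of both sexes pooled. All embryos carried a stable transgene for CG5245 fused at its C terminus to green fluorescent protein (GFP), and they are described as 3 biological replicates. The labels' description names an antibody against GFP and their antibody field reads CG5245, so the tagged transgene protein and not the untagged protein is taken as the target. Chromatin was sonicated to 200 to 800 bp, and a control shared by the replicates was not analysed here. There was no second genotype, stage or untagged line, so all comparisons below are between kinds of region within the same embryos, and signal from cell types that use different sites is averaged.

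CG5245 encodes a protein with C2H2 zinc fingers, small zinc-binding folds that occur in series in many sequence-specific DNA-binding proteins. A promoter is the stretch of DNA around a TSS on which RNA polymerase II and its general factors assemble. In the compact fly genome many broadly used genes lie head to head and share the DNA between their start sites, whereas a single-direction promoter has its own upstream region. Fly promoters of broadly used genes often carry short motifs such as the DNA replication-related element (DRE) or Ohler motifs 1, 6 and 7, and proteins of insulators, the elements that separate chromatin domains, often bind near them.

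The sequences at the strongest sites are shown first because they were rich in A and T while no motif of the list used here was in all of them. They are the 6 single-direction promoter peaks of highest signal whose sequence is printed, as the summit base with 50 bases on either side and read 5′ to 3′ in the direction of the gene (assembly dm6, sequence from RefSeq). The windows belong to Ugalt (chrX:2703837-2703937, minus strand), CG14100 (chr3L:19590570-19590670, minus strand), ph-p (chrX:2137285-2137385, minus strand), PNPase (chr3R:31404590-31404690, minus strand), CG18549 (chr3R:12449134-12449234, plus strand) and CG13921 (chr3L:1746730-1746830, plus strand). Capitals mark each run of 6 or more bases that are all A or T.
Ugalt: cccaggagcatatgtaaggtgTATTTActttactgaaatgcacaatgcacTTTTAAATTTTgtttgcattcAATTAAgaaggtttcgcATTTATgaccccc
CG14100: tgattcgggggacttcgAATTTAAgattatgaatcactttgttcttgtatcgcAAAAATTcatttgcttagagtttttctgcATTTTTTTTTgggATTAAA
ph-p: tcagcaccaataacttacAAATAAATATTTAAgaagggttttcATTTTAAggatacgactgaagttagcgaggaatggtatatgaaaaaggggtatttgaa
PNPase: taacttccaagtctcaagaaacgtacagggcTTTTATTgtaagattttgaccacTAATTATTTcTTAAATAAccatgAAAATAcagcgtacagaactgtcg
CG18549: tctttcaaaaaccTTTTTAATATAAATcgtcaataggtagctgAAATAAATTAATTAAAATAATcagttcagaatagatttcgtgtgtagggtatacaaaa
CG13921: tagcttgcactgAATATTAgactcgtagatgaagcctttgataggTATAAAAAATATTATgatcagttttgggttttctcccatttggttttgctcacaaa
The A+T content of these windows was 64.4% at Ugalt, 69.3% at CG14100, 68.3% at ph-p, 66.3% at PNPase, 75.2% at CG18549 and 66.3% at CG13921. Each held 2 to 4 of the runs in capitals, the TATA box was in the windows of CG18549 and CG13921, and the initiator (TCAGTT or TCAGTC) in those of ph-p, CG18549 and CG13921. A run of 6 or more A or T was present in 86.7% of all single-direction promoter peaks, in 72.4% of windows 500 bp to either side of them, in 91.9% of divergent promoter peaks and in 76.0% of candidate regions at single-direction promoters outside the set. Among windows centred 138 bp upstream of all protein-coding TSSs, the median position of the peaks, 84.8% held one.

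A second group of sequences shows motifs of the insulator and promoter literature that were more frequent at the summits than beside them. The windows with a match to the fly CTCF motif (AGGTGGCG or AGATGGCG) belong to mtSSB (chr3R:16205506-16205606, minus strand), dco (chr3R:31061488-31061588, minus strand) and CG6345 (chr3R:10416081-10416181, minus strand). CTCF is a zinc-finger protein of insulators. Those with the DRE (TATCGATA) belong to eEF1gamma (chr3R:29220082-29220182, plus strand) and RpS29 (chr3R:9777987-9778087, plus strand), and those with Ohler motif 7 (CATCNCTA) to Oatp30B (chr2L:9521081-9521181, plus strand) and tin (chr3R:21378675-21378775, plus strand). The last has Ohler motif 1 (GGTCACAC), and belongs to  and RpL30 (chr2L:19009243-19009343, minus strand). Within each motif the peaks of highest signal among those whose sequence is printed were taken, and capitals mark the motif on either strand.
mtSSB: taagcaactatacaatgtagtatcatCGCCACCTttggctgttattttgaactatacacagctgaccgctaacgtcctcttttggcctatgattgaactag
dco: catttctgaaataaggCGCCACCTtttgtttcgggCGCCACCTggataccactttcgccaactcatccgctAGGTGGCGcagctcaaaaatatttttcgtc
CG6345: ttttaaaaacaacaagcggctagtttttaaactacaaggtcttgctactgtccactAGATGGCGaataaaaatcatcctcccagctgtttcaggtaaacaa
eEF1gamma: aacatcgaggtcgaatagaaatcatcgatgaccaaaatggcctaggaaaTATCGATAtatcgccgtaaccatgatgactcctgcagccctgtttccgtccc
RpS29: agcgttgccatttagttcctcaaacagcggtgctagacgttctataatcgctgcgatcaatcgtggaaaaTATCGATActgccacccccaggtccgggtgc
Oatp30B: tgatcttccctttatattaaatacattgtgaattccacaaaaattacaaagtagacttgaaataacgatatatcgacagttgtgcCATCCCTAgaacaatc
tin: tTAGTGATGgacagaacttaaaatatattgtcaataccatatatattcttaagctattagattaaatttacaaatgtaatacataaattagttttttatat
RpL30: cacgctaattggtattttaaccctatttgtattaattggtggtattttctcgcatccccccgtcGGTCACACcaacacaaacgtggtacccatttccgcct
At dco, which encodes a casein kinase of the circadian clock, the window held 3 matches of the CTCF motif. mtSSB encodes the DNA-binding protein of mitochondrial replication, tin a homeodomain protein of the heart, Oatp30B an organic anion transporter and eEF1gamma a translation elongation factor. RpS29 and RpL30 encode ribosomal proteins.

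The last pair of sequences shows a word that belongs to none of the motifs on the list. CAACACTG was the most frequent word of 8 bases, apart from words with the BEAF-32 site CGATA, among those found over 4 times as often at summits as beside them. The windows belong to Hsp83 (chr3L:3193043-3193143, plus strand) and RpL23A (chr3L:1668714-1668814, minus strand). These are the peaks of highest signal that hold it among those whose sequence is printed, and capitals mark the word on either strand. Hsp83 encodes the fly Hsp90 chaperone and RpL23A a ribosomal protein.
Hsp83: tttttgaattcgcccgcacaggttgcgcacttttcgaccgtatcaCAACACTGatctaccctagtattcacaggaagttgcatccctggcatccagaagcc
RpL23A: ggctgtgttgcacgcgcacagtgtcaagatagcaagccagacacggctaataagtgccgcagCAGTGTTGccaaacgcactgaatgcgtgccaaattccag

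The single-direction promoter peaks covered the whole range of the set. Signal, a score given by the authors to each region and used here only within a list, ran between 92.4 and 2002 in these peaks with a median of 151.5, against 92.4 to 1410 with a median of 156.3 in divergent promoter peaks. Of the 1067 peaks, 44 exceeded a signal of 500 and 8 exceeded 1000. For the replicates, which have lists of their own, the regions of highest signal were taken in the number of the set, 3670 each, and are called top regions. Single-direction promoters held 1135 top regions of replicate 1, 1019 of replicate 2 and 1030 of replicate 3 (28.9% ± 1.74, SD, n = 3). Of the peaks in the set, 714 (66.9%) overlapped top regions of all 3 replicates, 225 of exactly 2, 122 of 1 and 6 of none. The set was made from these replicates, so this overlap describes it. The depth of sequencing is unknown, since the lists hold no read counts.

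The 20 strongest peaks were found in every replicate, and the lowest rank any of them took was 81. Ugalt encodes a UDP-galactose transporter of the Golgi, and its peak (signal 2002, summit 35 bp upstream of the TSS) ranked 1 in replicates 1, 2 and 3. The peak at CG14100 (1759, 96 bp upstream) ranked 3, 3 and 2, and that at px (1579, upstream of an internal TSS), a gene of wing vein patterning, ranked 4 in each replicate. The product of ph-p belongs to PRC1, a repressive complex of the Polycomb group. The peak of ph-p (1368) lay in an intron, 480 bp upstream of an internal TSS, and ranked 6, 6 and 7. These ranks hardly moved between the replicates.

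The other 16 of the 20 strongest sites belonged to genes of varied function. PNPase, an exonuclease of mitochondrial RNA, had a peak of signal 1170 with ranks 11, 13 and 12, and mRpL41, a protein of the mitochondrial ribosome, one of signal 1150 with ranks 12, 12 and 11. The peaks at CG1888 (1072), CG18549 (1061), CG13921 (929) and Tina-1 (881) ranked between 14 and 36. The peak at larp (838), which encodes an RNA-binding protein, ranked 35, 49 and 24, and that at SLC5A11 (836), a solute transporter gene, ranked 36, 26 and 34. eIF6 (816) encodes a translation initiation factor, Sox14 (802) a transcription factor, gish (768) a casein kinase and MFS10 (748) a transporter. Fkbp14 (745) encodes a prolyl isomerase, and Hsp27 (710) a small heat shock protein. The peak at GstE13 (727), a glutathione transferase gene, was the only one of the 20 downstream of the TSS, at 68 bp, and ranked 81, 23 and 55. CG31145 (738) completes the list.

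The ranks of the named peaks at the median and at the end differed more between replicates. At the median signal lay pck, which encodes a claudin (signal 152.5), SKIP (151.5) and CG11050 (151.4). pck ranked 3408, 1893 and 1083 in replicates 1, 2 and 3, SKIP 750, 4705 and 6938, and CG11050 2300, 958 and 4804. Only pck was among the top regions of all 3 replicates. The lowest signals were at FER, a tyrosine kinase gene (92.5), Cad88C, a cadherin gene (92.4), and CG4408 (92.4). CG4408 ranked 6728, 2177 and 16045, and was a top region in replicate 2 only. At the edge of the window CycE (500 bp upstream), which encodes a cyclin of S phase, COX7AL2 (500 bp downstream) and Mkp3, the gene of an ERK phosphatase, were just inside. CG42808 (502 bp upstream), CG5973 (502 bp upstream) and by (505 bp upstream), which encodes a tensin, were just outside, with signals of 180.6, 122.9 and 123.0 against 213.3, 106.5 and 137.4 at the 3 genes inside.

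The peaks belonged to 999 protein-coding genes. Of the peaks, 1030 had 1 such gene within 500 bp, 36 had 2 and 1 had 3. Most genes (907) had 1 peak, and 84 had 2. Rtnl1, which encodes a reticulon that shapes the endoplasmic reticulum, and RapGAP1, a regulator of Rap GTPases, had 5 each. Ptpmeg2, a tyrosine phosphatase gene, and Moe, which encodes the cytoskeletal linker moesin, had 4 each, and larp had 3. These genes have several start sites: Rtnl1 has 7, RapGAP1 5, Ptpmeg2 6, Moe 8 and larp 6. Genes with a single-direction promoter peak had more than 1 TSS in 57.9% of cases, against 26.5% of all protein-coding genes. Their median length was 5200 bp, against 2166 bp for all. A gene with more start sites has more promoters at which a peak can lie, and this was not adjusted for.

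The tagged gene itself had no such peak. CG5245 lies on chromosome 3R at 12429560 to 12431235, plus strand. The nearest single-direction promoter peak was that of CG18549, rank 17 in the set, with its summit 19624 bp from the TSS of CG5245.

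All major chromosome arms carried these peaks, and in the set the rate was highest on X. The share of protein-coding genes with one was 8.15% on X (179 of 2196), against 6.81% on 2L, 6.98% on 2R, 7.30% on 3L, 6.90% on 3R and a lower share on 4. In the top regions of the replicates, X had 8.38%, 7.47% and 7.47% (7.77% ± 0.526, SD, n = 3) and 3L 7.59%, 7.08% and 7.56% (7.41% ± 0.285). The ranges of X and 3L overlap, and 3L was above X in replicate 3. On 2R the replicates had 7.57%, 7.05% and 7.08%, which also overlaps the range of X. On 2L the replicates had 7.38%, 5.87% and 6.44%, and on 3R 7.40%, 6.66% and 6.75%, all below the lowest value of X. On chromosome 4 it was 4 of 80 genes.

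Binding was centred upstream of the start site. In the set, 893 of 1067 summits (83.7%) lay upstream of the nearest protein-coding TSS, 172 downstream and 2 on it, with a median of -138 bp. The upstream share was 80.3%, 84.3% and 80.5% in replicates 1, 2 and 3 (81.7% ± 2.27, SD, n = 3), and the median position -114, -144 and -148 bp. The 100 bp bins from -200 to -100 bp and from -100 bp to the TSS held 24.9% and 24.1% of summits, and the first 100 bp downstream held 7.03%. The rule drops peaks with an opposed TSS, so promoters with a neighbour close upstream are under-represented by construction. Candidate regions at single-direction promoters, taken from the pooled candidate list but outside the set, passed the same rule, and 56.5% of their summits lay upstream. That list is labelled as peaks and background, so candidates may be background and not weaker binding sites.

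**Figure D1:**
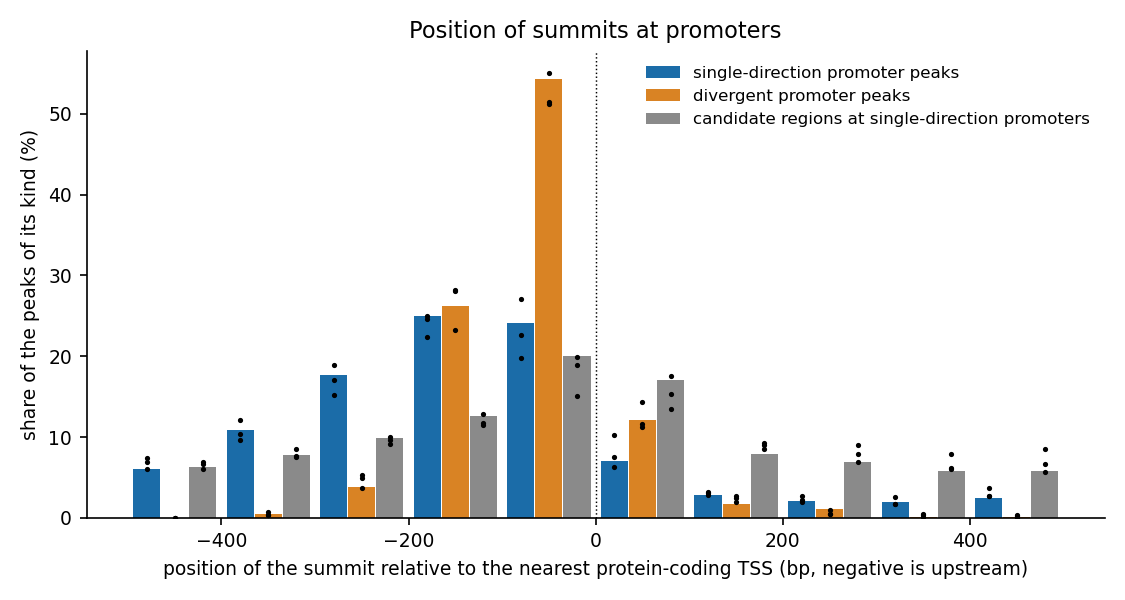
Share of summits (%) in bins of 100 bp around the nearest protein-coding TSS, for single-direction promoter peaks, divergent promoter peaks and candidate regions at single-direction promoters outside the reproducible set. Bars show the reproducible set or pooled candidates and points the 3 replicates. Of the single-direction promoter peaks 83.7% lie upstream, against 56.5% of the candidate regions, and divergent promoter peaks crowd into the 100 bp before the TSS (54.3%).

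The comparison with those candidate regions was made within each replicate, between its top regions and the candidates below them at the same kind of promoter. The upstream share was 81.7% ± 2.27 at single-direction promoter peaks and 54.1% ± 1.91 at the candidates (SD, n = 3), a difference of 26.0, 28.5 and 28.4 percentage points in replicates 1, 2 and 3. The mean difference of 27.6 was far larger than its SD of 1.42. All 3 replicates had the same sign, for which an exact sign-flip permutation test over 3 replicates gives p = 0.25, the smallest value it allows (2-sided). The distance between summit and TSS, regardless of side, had a median of 165.7 ± 17.6 bp at the peaks and 176.0 ± 23.8 bp at the candidates. The difference of -10.3 ± 13.6 bp was smaller than its spread (p = 0.5, the same exact test). This difference depended on the promoter window: it was 4, 17 and 8 bp in the replicates with a window of 250 bp, and -99, -86.5 and -131 bp with 1000 bp.

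Divergent promoter peaks sat closer to their TSS. Their median distance was 76.5 ± 5.22 bp, against 165.7 ± 17.6 bp at single-direction promoter peaks, and the difference was 75.5, 91 and 101 bp in replicates 1, 2 and 3 (89.2 ± 12.8 bp, SD; exact sign-flip p = 0.25, n = 3). The difference was 18, 29 and 31 bp with a promoter window of 250 bp, and 152, 174.5 and 174 bp with 1000 bp. A summit between 2 divergent start sites is counted from the nearer one, which shortens this distance by construction. Such a summit is also upstream of either start site, so the upstream share of divergent promoter peaks is partly set by the rule. The upstream share was 2.41 ± 2.14 percentage points lower at single-direction promoter peaks, and the median rank within the list 46.8% ± 1.27 against 46.6% ± 1.57, a difference of 0.186 ± 0.677 (exact sign-flip permutation p = 0.25 and 1). Of the top regions at single-direction promoters 67.0% ± 3.90 overlapped top regions of both other replicates, against 70.6% ± 2.84 at divergent promoters. This difference of -3.64 ± 2.67 points was negative in each replicate (exact sign-flip p = 0.25, n = 3). With the upper 50% of regions by signal the rank, upstream share and overlap differences changed sign. With a promoter window of 250 bp the rank difference was 5.64, 5.37 and 9.65 and the overlap difference -10.7, -6.52 and -10.4 points in the replicates, so neither has a stable size.

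Summits were placed in all parts of the gene models. By the Ensembl annotation 507 (47.5%) lay between genes, 354 (33.2%) in an intron and 206 (19.3%) in an exon of any gene. Of the 893 upstream summits, 294 lay in an intron and 92 in an exon. Of all peaks, 684 (64.1%) were nearest to the first TSS of their gene and 383 to an internal one, while 28.9% of all 19607 protein-coding TSSs are not the first of their gene. Going upstream from the TSS nearest to the peak, the next protein-coding gene ran in the same direction for 537 peaks (50.3%). It ran in the opposite direction for 410 (38.4%), and for 120 peaks (11.2%) the TSS lay inside another gene. Over all protein-coding genes these shares are 36.7%, 45.5% and 17.7%, and the rule shifts the first 2 by dropping close divergent pairs. The shares over all genes count each gene once, at its first TSS, so they are not measured at like points. A non-coding gene with an opposed TSS was present at 45 of the peaks (4.22%).

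Base composition changed across the summits. A+T content was 62.5% in the window at the summit, against 59.8% at 500 bp upstream and 53.7% at 500 bp downstream. The summit exceeded the mean of both flanks by 4.12, 5.95 and 5.87 percentage points in replicates 1, 2 and 3 (5.32 ± 1.03, SD; exact sign-flip p = 0.25, n = 3). The highest A+T content of the profile, 65.0%, lay 100 bp upstream of the summit. The same content is usual for fly promoters at this distance, since windows 138 bp upstream of all protein-coding TSSs also had 62.5%.

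**Figure D2:**
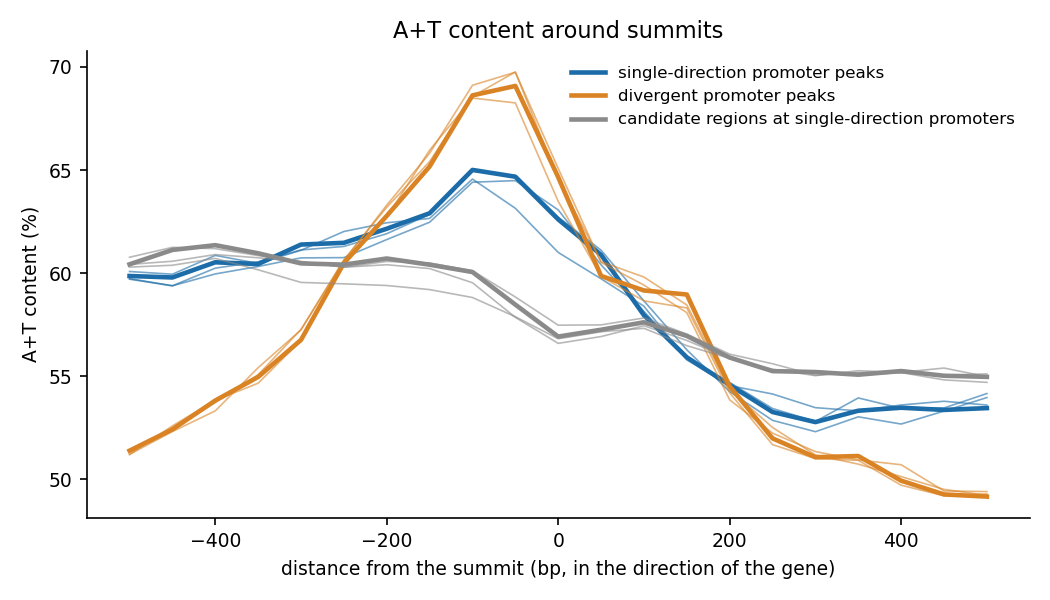
A+T content (%) against distance from the summit in bp, read in the direction of the gene, for single-direction promoter peaks, divergent promoter peaks and candidate regions at single-direction promoters. Thick lines are the reproducible set or pooled candidates, and thin lines the replicates. The single-direction promoter peaks reach 65.0% at 100 bp upstream of the summit, divergent promoter peaks 69.1% at 50 bp upstream, and the candidate regions 61.4% at 400 bp upstream with 56.9% at the summit.

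The peaks differed in base composition from both other kinds of region. Against candidate regions at single-direction promoters, A+T was 62.2% ± 0.973 at the peaks and 57.1% ± 0.426 at the candidates, a difference of 4.33, 5.17 and 5.72 percentage points in the replicates (5.07 ± 0.700; exact sign-flip p = 0.25, n = 3). Against divergent promoter peaks it was lower, 62.2% ± 0.973 and 64.5% ± 0.878, with differences of -2.41, -1.99 and -2.40 points (-2.27 ± 0.240; exact sign-flip p = 0.25, n = 3). The mean of this difference was -4.50 points with a promoter window of 250 bp, -0.84 with 1000 bp and -0.98 with the upper 50% of regions by signal. Measured at a fixed place, 200 bp upstream of the TSS, single-direction promoters with a peak had 65.8% A+T, those with a candidate region 62.7% and all protein-coding promoters 62.5%. Nearer to the TSS the order was the other way: at 50 bp upstream the values were 52.8%, 54.8% and 57.6%, and at the TSS 52.3%, 53.6% and 55.8%.

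Within the peaks, signal went with composition and position. The peaks of each list were divided into 3 classes of equal size by signal. In the set, A+T at the summit was 60.0% in the lower, 62.5% in the middle and 64.9% in the upper class. In the replicates it was 65.0% ± 1.13 in the upper and 59.3% ± 0.785 in the lower class, a difference of 5.63 ± 0.398 percentage points. The median position was -92.5, -142.5 and -166 bp in the lower, middle and upper class of the set, and differed by -100, -81 and -88.5 bp between upper and lower class in the replicates. The upstream share was 88.0% ± 0.927 in the upper and 73.0% ± 4.21 in the lower class of the replicates. Each of these differences had the same sign in 3 of 3 replicates (exact sign-flip p = 0.25, the smallest possible). The strongest peaks thus lay farther upstream, in DNA of higher A+T content.

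Several short motifs were less frequent at higher signal, and others were not. The BEAF-32 site CGATA, bound by an insulator protein, was present in 28.4% of the lower, 18.5% of the middle and 14.1% of the upper class of the set. In the replicates the upper minus lower difference was -3.65, -7.31 and -8.11 percentage points. The DRE was present in 4.21%, 2.25% and 1.13% of the lower, middle and upper class, and motif 7 in 5.62%, 3.09% and 1.41%. The CA repeat (CACACACA) was present in 3.65%, 0.843% and 0.282%, with differences of -3.69, -3.53 and -3.20 points between upper and lower class in the replicates. The TATA box TATAAA ran the other way, with 12.6%, 14.6% and 20.3%, and it is itself made of A and T. The CTCF motif was most frequent in the middle class (1.97%, 5.06% and 2.82%), with upper minus lower differences of 0.54, 0.60 and 1.46 points in the replicates. The Su(Hw) motif TGCATACT, of another insulator protein, was rare and also higher in the upper class (1.06, 0.88 and 0.58 points), and motif 6 had 5.06%, 5.06% and 4.79% in the lower, middle and upper class of the set.

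**Figure D3:**
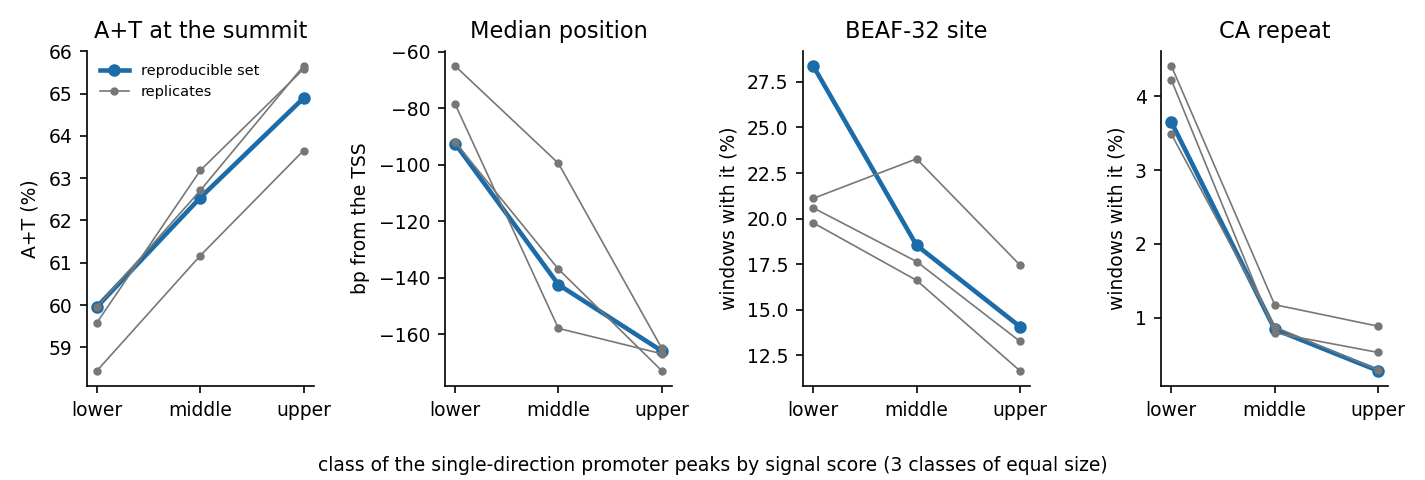
A+T content at the summit (%), median position of the summit (bp from the TSS) and share of windows with the BEAF-32 site or the CA repeat (%), in the lower, middle and upper class by signal score of the single-direction promoter peaks. Thick lines are the reproducible set and thin lines the replicates. A+T content is higher and the position farther upstream in the upper class, and both motifs are rarer there.

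The CTCF motif, the DRE, motifs 1, 6 and 7 and the TATA box were called more frequent at summits than 500 bp beside them. Each of 20 motifs was searched on both strands in the windows at the summits, and log2 ratios of the shares were fitted per replicate with limma, with Benjamini-Hochberg adjustment over the motifs. A motif was called at an adjusted p under 0.05 and an absolute log2 ratio of at least 0.5. Of the 19 motifs held by enough windows, 6 (31.6%) were called higher at summits and 2 (10.5%) lower. The CTCF motif was held by 35 peaks of the set (3.28%), against 0.515% of flank windows. Its log2 ratio was 2.55, 2.49 and 2.18 in replicates 1, 2 and 3 (mean 2.40 ± 0.12 SE, limma adjusted p = 0.000651). Motif 7 was held by 36 peaks (3.37%) and 0.890% of flanks (2.07 ± 0.15 SE, limma adjusted p = 0.0014). The DRE, bound by the transcription factor DREF, was held by 27 peaks (2.53%) and 0.422% of flanks (1.88 ± 0.27 SE, limma adjusted p = 0.00822).

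The remaining calls against flanks had lower ratios. Motif 1, the site of the promoter factor M1BP, was held by 13 peaks (1.22%) and 0.234% of flanks (log2 ratio 1.83 ± 0.22 SE, limma adjusted p = 0.00778). Motif 6 (GTATTTTT or GTATATTT) was held by 53 peaks (4.97%) and 1.87% of flanks (1.03 ± 0.14 SE), and the TATA box by 169 (15.8%) and 11.2% (0.53 ± 0.10 SE). The CA repeat, with 1.59% of peaks and 3.80% of flanks, and the CRE motif TGACGT, with 1.78% and 2.91%, were called lower. The BEAF-32 site, at 20.3% of peaks and 12.6% of flanks, missed both thresholds (0.49 ± 0.14 SE, limma adjusted p = 0.0531). Other promoter motifs, the initiator (-0.13), the TCT initiator (-0.10) and the GAGA motif GAGAG (-0.15), were not called. The Su(Hw) motif was in too few windows to be fitted. The DRE contains the BEAF-32 site on both strands, so these are not independent. Without the TATA box, which A+T-rich DNA holds often, 146 peaks (13.7%) held at least 1 of the motifs called higher, against 3.75% of flank windows. Most peaks therefore held none of them. Among windows 138 bp upstream of all protein-coding TSSs, 0.717% held motif 1, 3.65% motif 6 and 18.4% the TATA box. At candidate regions at single-direction promoters outside the set these shares were 1.89%, 2.69% and 11.9%. The TATA box was thus less frequent at the peaks of the set than at all promoters, and motif 1 less frequent than at candidate regions. Without replicate 1 the motifs called against flanks were 3 higher and 1 lower. The lower one was the Zelda motif CAGGTAG (-1.32, limma adjusted p = 0.0283), which was not called with all replicates. The DRE (1.58, limma adjusted p = 0.0729), motif 1 (1.61, 0.0729), motif 7 (2.09, 0.0588) and the CA repeat (-0.91, 0.132) lost their calls. The TATA box lost its call without replicate 2 (0.48) or 3 (0.50), and the CRE motif without replicate 1 (-0.66) or 2 (-0.44).

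**Figure D4:**
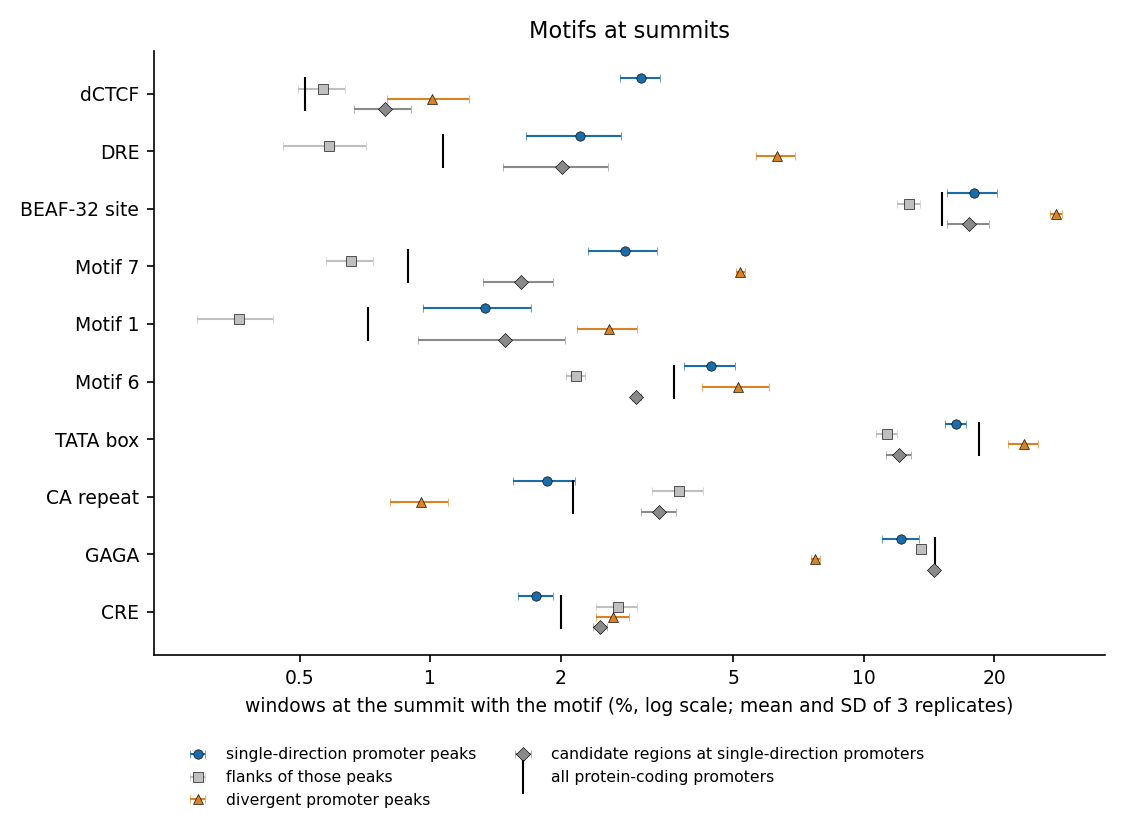
Share of windows at the summit that hold each of 10 motifs (%, log axis), as mean and SD of 3 replicates, at single-direction promoter peaks, their flanks, divergent promoter peaks and candidate regions at single-direction promoters, with the share at all protein-coding promoters as a black bar. The CTCF motif (labelled dCTCF) is at 3.06% of the single-direction promoter peaks and at 1.01% or less of the other 4 kinds of window, whereas the DRE and motifs 1 and 7 are highest at divergent promoters.

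The CTCF motif set the single-direction promoter peaks apart from each of the other kinds of window. It was found at 3.06% ± 0.323 of the peaks in the replicates, against 1.01% ± 0.216 of divergent promoter peaks and 0.785% ± 0.117 of candidate regions (SD, n = 3), and at 0.514% of all protein-coding promoters. Against divergent promoter peaks 3 of 18 motifs (16.7%) were called higher and 6 (33.3%) lower. The CTCF motif had the highest log2 ratio (2.05, 1.29 and 1.25 in replicates 1, 2 and 3, mean 1.53 ± 0.16 SE, limma adjusted p = 1.5e-10), followed by the CA repeat (0.88 ± 0.16 SE) and the GAGA motif GAGAG (0.65 ± 0.16 SE). GAGAG is bound by the GAGA factor, and was at 12.2% ± 1.20 of single-direction and 7.73% ± 0.194 of divergent promoter peaks. Candidate regions (14.5% ± 0.305) and all protein-coding promoters (14.6%) held it more often than the single-direction promoter peaks. The GAGA motif lost its call with a promoter window of 250 bp (0.30), with the upper 2000 regions (0.34) and with the upper 50% by signal (0.35), and the CA repeat lost its call with a window of 1000 bp (0.37). In this fit limma gave all motifs the same variance, so its adjusted p-values do not rest on each motif's own spread. This holds for the DRE below as well. Replicates share most of their sites, so the spread is that between libraries and not between sites. Against candidate regions 3 of 20 motifs (15.0%) were called higher, the CTCF motif (1.97 ± 0.13 SE, limma adjusted p = 0.00079), motif 7 (0.81 ± 0.08 SE) and motif 6 (0.58 ± 0.11 SE). The CA repeat, 1 of 20 (5.0%), was called lower (-0.84 ± 0.14 SE). None of these 4 calls against candidates held without replicate 3, where the CTCF motif had a log2 ratio of 1.90 and an adjusted p of 0.0886 (limma).

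The DRE, motifs 1 and 7 and the BEAF-32 site were more frequent at divergent promoter peaks. The DRE was at 2.21% ± 0.551 of single-direction and 6.29% ± 0.648 of divergent promoter peaks (log2 ratio -1.52 ± 0.16 SE, limma adjusted p = 1.5e-10). Motif 1 was at 1.34% ± 0.373 and 2.59% ± 0.410 (-0.97 ± 0.16 SE), motif 7 at 2.82% ± 0.508 and 5.19% ± 0.126 (-0.89 ± 0.16 SE), and the BEAF-32 site at 17.9% ± 2.39 and 27.7% ± 0.842 (-0.64 ± 0.16 SE). The CRE motif and the TATA box were the other 2 called lower. Motif 6 (-0.21, limma adjusted p = 0.297), the initiator (0.12, 0.514) and the TCT initiator (0.08, 0.667) were not called. With a promoter window of 250 bp, for peaks and opposed start sites alike, the calls of the DRE (log2 ratio -0.23), motif 7 (-0.09) and the BEAF-32 site (-0.10) were lost and that of motif 1 changed sign (0.25). With the DRE and the BEAF-32 site the single-direction promoter peaks were near the candidate regions at the same kind of promoter, which had 2.02% ± 0.547 and 17.5% ± 1.96.

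The motifs also took different places. Within 100 bp of the summit the CTCF motif had 55 matches, at a median distance of 28.5 bp, the shortest of the 20 motifs, and a median position 152.5 bp upstream of the TSS. The DRE had 62 matches at a median of 49.5 bp from the summit and 53.5 bp upstream of the TSS, and motif 7 had 70 at 44.5 and 37.5 bp. By windows in steps of 100 bp, the CTCF motif was in 3.28% of windows at the summit, 0.843% at 100 bp upstream and 1.22% at 100 bp downstream. The DRE was in 2.53%, 2.06% and 2.06%. CTCF matches thus lay closer to the summit at the median, and DRE matches closer to the TSS.

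Words of 6 bases were compared without a list of motifs. Both strands were joined, and log2 ratios of the shares of windows were fitted as for the motifs. Replicates share most of their sites and a control, so the spread in these fits is that between libraries and not between sites. Against flanks, 241 of 2080 words (11.6%) were called higher and 483 (23.2%) lower. The ratios ran with base composition over all words: the median log2 ratio was -0.94 for words with no A or T, -0.17 for those with 3 and 0.58 for those with 6.  CGCTAG, with 2 of them, led with 35 peaks of the set (3.28%) and 0.797% of flank windows (log2 ratio 1.86 ± 0.18 SE, limma adjusted p = 5.7e-09). CTATAG (1.41), ACACTG (1.37), CGATAG (1.36), ACTAGT (1.32) and TATCGA (1.29) followed, then TAGCTA (1.23), CACTAG (1.22), CCTTAC (1.22) and ACAGTG (1.22). CGATAG and TATCGA are part of extended BEAF-32 and DRE sites, and ACACTG was at 100 peaks (9.37%) and 3.05% of flank windows. The lowest ratios belonged to G+C-rich words, among them CTCCTC (-2.21), GCCTCC (-2.21), CCCCGG (-2.13), ATCCGG (-2.08), CAGGAC (-2.05), AGGAGG (-2.01), CCAGGA (-1.98), GGAGGA (-1.86), CCGCGG (-1.82) and CCCAGG (-1.77).

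Against divergent promoter peaks 275 of 2072 words (13.3%) were called higher and 94 (4.54%) lower. The highest were CGAGAG (log2 ratio 2.33 ± 0.27 SE), GACGCC (2.32), CGGACG (1.88), CCGGAG (1.73), TCATGA (1.68), CCCGTC (1.67), GCGTCC (1.63), CTCGAG (1.61), CTATAG (1.57) and GAGAGA (1.56). GAGAGA was at 55 of the single-direction peaks (5.15%) and 7 of the divergent ones (1.11%). Each of these 10 words was at only 0 (GACGCC) to 8 (CTATAG) of the 630 divergent peaks of the set, so the ratios rest on few windows. In the set CCGGAG was at 0.937% of single-direction and 0.476% of divergent peaks, and CTATAG at 2.44% and 1.27%. Lower were GGCGTA (-1.50 ± 0.21 SE), CCGTAA (-1.21), CTGGTA (-1.14), CCCTTA (-1.09), ATCCTC (-1.05), CAGCCC (-1.02), CGATAG (-0.96), GACGTA (-0.95), GCTGCC (-0.95) and ACCAGA (-0.94). Here the median ran the other way with composition, between 0.22 for words with no A or T and -0.37 for words of A and T only. Leaving out replicate 2 reduced the calls to 127 higher and 59 lower.

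Against candidate regions at single-direction promoters 181 of 2080 words (8.7%) were called higher and 435 (20.9%) lower. The medians over composition, -0.79 with no A or T and 0.53 with 6, were close to those against flanks. The highest were AGGGTA (0.96 ± 0.15 SE), CTATTA (0.96), TCTTAA (0.92), TAGCTA (0.92), ATCTTA (0.91), AGTAAT (0.91), ACTAGT (0.89), CTAGTC (0.87), ATGTTA (0.87) and CTATAG (0.85). No CGATA word was among them. The lowest were CAGGAC (-1.96 ± 0.26 SE), CGGATC (-1.78), GCCTCC (-1.72), ATCCGG (-1.65), CCCCGG (-1.61), GGACGA (-1.56), CCCGGC (-1.50), CTCCTC (-1.49), CGATCC (-1.47) and GCTCCC (-1.42). The words CTATAG (1.41 and 0.85), ACTAGT (1.32 and 0.89) and TAGCTA (1.23 and 0.92) were among the 10 highest words in the comparisons with flanks and with candidates.

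Words of 8 bases, a length added after the data had been seen, extended the word ACACTG. Against flanks 1429 of 9518 words (15.0%) were called higher and 1021 (10.7%) lower. CAACACTG was at 33 peaks (3.09%) and at 4 of 2134 flank windows (0.187%), with log2 ratios of 3.50, 3.69 and 2.39 in the replicates on the scale with a pseudocount (mean 3.19 ± 0.25 SE, limma adjusted p = 0.00232). Related words were CAGCACTG at 24 peaks (2.25%) and 0.469% of flanks, and AGTGTTGC at 18 (1.69%) and 0.281%. CAGCCCTG was at 18 peaks and 3 flank windows (3.57 ± 0.29 SE), and CACTGTGC at 27 and 6 (2.14 ± 0.29 SE). CAACACTG was at 0.530% of all protein-coding promoters and at 28 divergent promoter peaks (4.44%). The log2 ratio of single-direction to divergent peaks was -0.18 ± 0.16 SE (limma adjusted p = 0.428), so no difference was detected. Against divergent promoter peaks 256 of 3283 words (7.8%) were called higher and 515 (15.7%) lower, and CAGCCCTG was among the lower (-1.36 ± 0.21 SE). Against candidate regions 1122 of 21271 words (5.27%) were called higher and 1250 (5.88%) lower. CAACACTG was higher there (1.39 ± 0.15 SE, limma adjusted p = 0.0105), and so were AGGTGGCG (2.16 ± 0.24 SE) and AGATGGCG (2.04 ± 0.24 SE), both spellings of the CTCF motif.

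Among the gene lists compared here, cytoplasmic ribosomal protein genes and Notch and E(spl) genes had these peaks most often. Among all 13945 protein-coding genes 999 (7.16%) had a single-direction promoter peak within 500 bp of a TSS, and 7.15% ± 0.429 in the top regions of the replicates (SD, n = 3). The lists below are given by counts, with no test of their own. Of 86 cytoplasmic ribosomal protein genes 30 (34.9%) had one, with 37.2%, 30.2% and 22.1% in replicates 1, 2 and 3. Those of highest signal were RpL23A (290.3, ranks 235, 550 and 1453), RpS4 (282.9, ranks 201, 982 and 1198), RpL24 (241.8) and RpL30 (239.8). These summits lay between 110 bp upstream and 19 bp downstream of the TSS. Each ranked highest in replicate 1. Of 54 translation factor genes 10 (18.5%) had a peak, among them eIF6, eEF1gamma (286.7), eIF3c (260.9) and eIF2beta (162.8), with 20.4%, 14.8% and 9.26% in the replicates.

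The room for such a peak, measured by distance from a divergent TSS, differs between lists. Of all protein-coding genes, 9655 had a TSS with no divergent protein-coding TSS of another gene within 1000 bp, and 927 of these (9.6%) had a single-direction promoter peak. A peak does not need such a TSS, since the rule for peaks uses 500 bp. Only 15 of the 73 mitochondrial ribosomal protein genes (20.5%) had such a TSS. None of the 15 had a single-direction promoter peak. In the whole list 2 genes (2.74%), mRpL41 (1150) and mRpL4 (132.7), had a single-direction promoter peak, while 27.4% had a divergent one. Of the cytoplasmic ribosomal protein genes 38 had such a TSS and 21 of the 38 (55.3%) had a peak, and 32.6% of the list had a divergent peak.

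The Notch and E(spl) list was the reverse case. Of its 25 genes 8 (32.0%) had a single-direction promoter peak and 4.00% a divergent one, and each replicate had the same share, below that of the set. gro, which encodes the co-repressor Groucho, had a signal of 467.3 with ranks 191, 153 and 113, its summit 134 bp upstream of the TSS. E(spl)m3-HLH (287.3, ranks 731, 920 and 243) and E(spl)m7-HLH (150.3, ranks 1333, 2022 and 2210) encode repressors induced by Notch, and numb (278.5, ranks 534, 652 and 468) an inhibitor of Notch. Several of these genes are neighbours in 1 cluster on 3R.

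**Figure D5:**
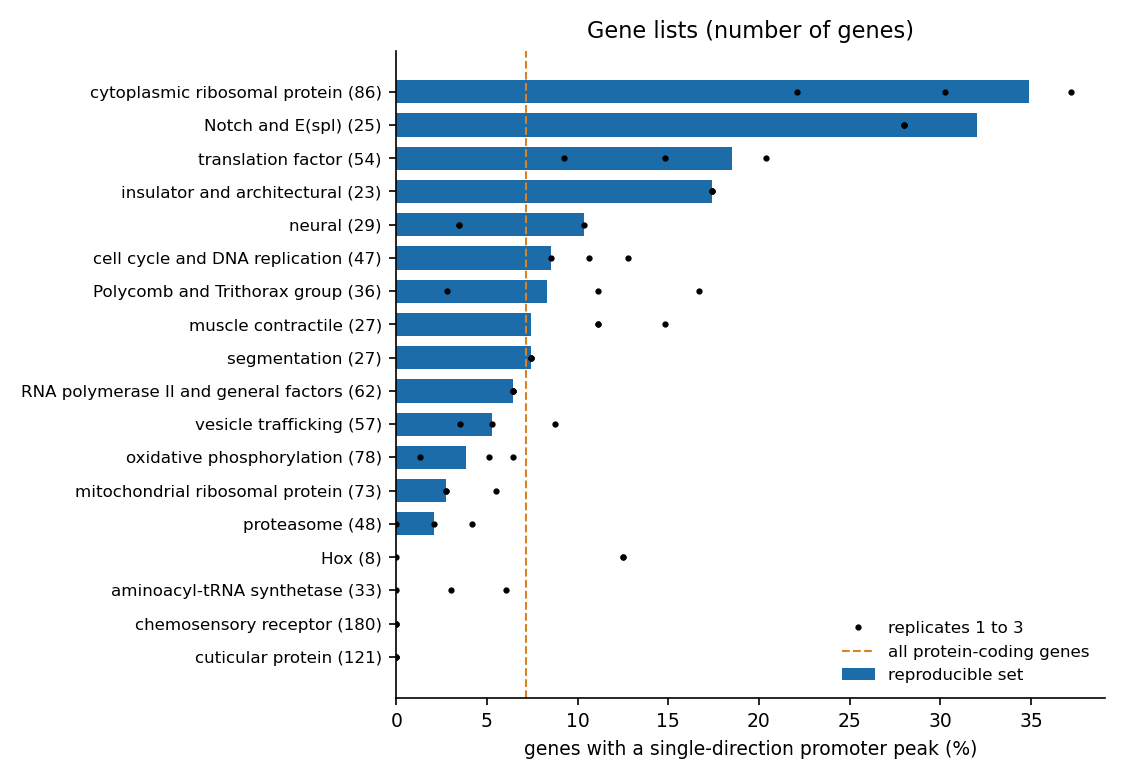
Share of the genes of each list with a single-direction promoter peak (%), with the number of genes in parentheses. Bars are the reproducible set, points the replicates (which can coincide) and the dashed line all protein-coding genes (7.16%). Cytoplasmic ribosomal protein genes (34.9%) and Notch and E(spl) genes (32.0%) have the highest shares, and cuticular protein and chemosensory receptor genes have none in the set or in any replicate.

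Genes of chromatin architecture included factors whose motifs are named above. Of 23 insulator and architectural genes 4 (17.4%) had a peak, with 17.4% in each replicate. They were row (225.8), Trl (223.2), which encodes the GAGA factor, BEAF-32 (155.5) and CTCF (138.1), which encode insulator proteins. The peak at CTCF lay 221 bp downstream of the TSS and ranked 1927, 3778 and 981, and that at BEAF-32 46 bp upstream and ranked 1548, 2655 and 2074. Of 36 Polycomb and Trithorax group genes 3 (8.33%) had a peak, with 16.7%, 2.78% and 11.1% in the replicates. They were ph-p and its neighbour and paralog ph-d (106.5), and Utx, which encodes a histone demethylase.

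Other lists of broadly used genes had shares between 0% and 8.51%. Of 47 cell cycle and replication genes 4 (8.51%) had a peak: Dp (242.2), which encodes a partner of E2F, CycE (213.3), CycB (142.3) and BubR1 (134.1). Of 62 genes of RNA polymerase II and its general factors 4 (6.45%) had one, namely Polr2F (248.7), MED4 (217.0), TfIIA-S (201.4) and Taf4 (165.1). Of 57 vesicle trafficking genes 3 (5.26%) had one, namely Rab5 (196.0), deltaCOP (143.5) and Vps28 (95.5). Of 78 oxidative phosphorylation genes 3 (3.85%) had one, namely ND-13B (132.6), ND-B22 (112.6) and COX7AL2 (106.5). Of 48 proteasome genes 1 (2.08%) had one, Rpn11 (112.1). None of 33 aminoacyl-tRNA synthetase genes had one in the set, with 6.06%, 3.03% and 0% in the replicates.

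Segmentation, neural and muscle contractile genes had shares of 7.41% to 10.3%, against 7.16% of all genes, and 3 further lists had none in the set. Among genes with a TSS clear of a divergent one these lists had 7.69%, 10.7% and 7.69%, against 9.60% of all such genes. The neural list had 10.3%, 3.45% and 3.45% in replicates 1, 2 and 3. The muscle list had 14.8%, 11.1% and 11.1%, and the segmentation list 7.41% in each. Of 27 segmentation genes 2 (7.41%) had a peak: hry, also known as hairy (343.8, ranks 364, 496 and 200), and bcd (305.7, ranks 422, 503 and 357), which encodes the anterior determinant Bicoid. Of 29 neural genes 3 (10.3%) had one. The pan-neuronal gene elav, whose product binds RNA, had a signal of 475.0 with ranks 186, 137 and 155. pros (101.5) and vnd (94.4) were top regions of 1 replicate each. Of 27 muscle contractile genes sls (199.7), which encodes a titin-like protein, and Tm1 (112.2), a tropomyosin gene, had one (7.41%). None of 8 Hox, 121 cuticular protein and 180 chemosensory receptor genes had one in the set. Most of these genes have a TSS clear of a divergent one, namely 100% of the Hox, 90.1% of the cuticular protein and 86.1% of the chemosensory receptor genes. In the top regions the Hox list had 0%, 12.5% and 12.5%, and the other 2 lists 0% in each replicate.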

How the data were processed

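ChIP-seq regions of 3 replicates were analysed. Per the submitters' text files, the authors derived candidate regions for each replicate and for the pooled replicates, each with a control, and from them a reproducible set by the irreproducible discovery rate (IDR). The pooled candidate list is labelled as peaks and background for IDR. It holds 30000 regions, and the lists of the replicates hold 30000, 30000 and 29608. The share of background among the candidates is unknown. The deposited signal of a region is the authors' score and has a scale of its own in each list. The aligner, peak caller and thresholds were not given in the sources used here. Only dm6 lists were used, and the same lists on dm3 were not used here.

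Members, motifs, gene lists and tests were chosen with earlier results of these data known. Start sites were those of Ensembl gene models and sequences those of RefSeq for Release 6. Summits were compared within 50 bp on either side, with windows 500 bp away. Words and motifs held by a mean of at least 10 windows per replicate were fitted as log2 ratios with a pseudocount of 0.5 windows. The fit had an intercept only and used limma 3.58.1 (R 4.3.3). It was tested on simulated word counts with planted changes and replicates drawn independently. Real replicates share most of their sites, so that test cannot show how the sharing affects the adjusted p-values. Other values were computed in Python 3.11.15, with exact sign-flip permutation tests over replicates. Of the list symbols, 4 matched no current gene. Named were the 20 strongest peaks, 3 each at the median, the end and both sides of the window limit, up to 4 genes per list, up to 5 genes with most peaks, the tagged gene and the 10 highest and lowest called words. Words of 8 bases and the printed motif examples were chosen after their values were seen.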

Additional observations from a re-analysis of the deposited data

How the results depend on the processing

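The alternatives were promoter windows of 250 and 1000 bp, the upper 50% of regions by signal, the upper 2000 regions per replicate, peaks found in all 3 replicates, summit windows of 100 bp on either side, flanks at 1000 bp, no minimum of windows, another pseudocount, other rules for genes and leaving out each replicate. No paired analysis was possible because the data hold 1 group of samples only, and the comparisons between kinds of region were made within each replicate. Over the alternatives for the summary values, 199 stayed close or, for differences, kept their sign, 41 moved and 11 changed sign. A kept sign does not show a kept size, as the differences from divergent peaks by promoter window show. The share of single-direction promoter peaks was 26.1% in the set and 26.3% over replicates at 250 bp, and 34.3% and 33.9% at 1000 bp. The upstream share was 76.7% and 75.7% at 1000 bp, 88.1% and 87.1% with the upper 50%, and 86.9% over replicates with the upper 2000. The median position was -89 and -86 bp at 250 bp, -166 and -158.8 bp with the upper 50%, -157 bp for peaks found in all 3 replicates, and -157.7 bp over replicates with the upper 2000. Leaving out 1 replicate gave upstream shares of 84.2% to 86.2% and medians of -162 to -147 bp in the set. All genes had a peak in 9.60% of cases when only genes with a TSS clear of a divergent one were counted.

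Several differences changed sign. The distance to the TSS against candidates was 9.67 bp at 250 bp, 6.83 bp with the upper 2000 and 4.33 bp with the upper 50%. Against divergent peaks, the rank difference was -1.33 at 1000 bp, -3.74 with the upper 2000, -3.96 with the upper 50% and -0.198 without replicate 3 (range -0.198 to 0.443). The overlap difference was 0.0754 with the upper 2000 and 0.365 with the upper 50%, and the upstream difference 2.56 and 3.19. Motif 1 against divergent peaks was 0.25 at 250 bp.

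Words called against divergent peaks ran between 127 and 227 higher and between 59 and 89 lower without 1 replicate, and were 62 lower with the larger summit window, 179 lower with the upper 2000 and 154 lower with the upper 50%. Words called higher against candidates were 91 with the larger summit window, 274 with the upper 2000 and 306 with the upper 50%. Motifs called against flanks were 3 to 5 higher and 1 to 2 lower without 1 replicate, and 1 lower at 1000 bp. Against divergent peaks 1 motif was higher with the upper 2000 or the upper 50%, and 1 lower at 250 bp. Against candidates 0 to 4 were higher and 0 to 2 lower without 1 replicate, 5 higher and 3 lower with the upper 2000 or the upper 50%, and 2 lower at 250 bp. The causes of these changes were not tested. With 3 replicates no exact sign-flip test can go below 0.25, and with unknown depth an absent peak may be one that was not detectable.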
